A study of Microtus ochrogaster with 23 samples.

Results

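DNA methylation of 12 sexually naive male prairie voles and 5 fathers was compared in the dentate gyrus (DG), the input region of the hippocampus. The virgin group joined 6 “Attacker” males, which attacked a pup in a test of pup response, and 6 “Parental” males, which cared for it without having sired young. “Attacker” males were separated from the pup once they attacked, and brains were taken directly after the test. Their time with the pup before tissue collection was therefore cut short. The “Father” males had been paired with a female, had lived with her and their litter, and were tested 3 days after the birth. All 17 males were wild type (WT) adults of matched age, the virgins were kept in same-sex sibling pairs, and each library came from DG punches of 1 animal. Pairing, mating, cohabitation with a female and life with pups all separated “Father” from the virgins, and their contributions cannot be told apart in this design. The series also holds 6 “Mother” animals, which share the pair bond and the litter with “Father” and were used here only as an outside reference. Methylation was measured by reduced representation bisulfite sequencing (RRBS), which reads the CpG-rich fragments cut by the enzyme MspI and counts, at each cytosine, how many reads were protected from conversion. Cytosines with at least 10 reads in at least 9 virgin and at least 4 “Father” animals, outside chromosome X, were compared. This left 1093103 cytosines, or 27.0% of the 4051749 that had a read in at least 1 of 23 animals, and 6643 further cytosines met the depth rule on chromosome X and were dropped.

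Methylation of cytosine in CpG dinucleotides is laid down by DNA methyltransferases and can be removed again through TET oxidation, and in neurons both are active in the adult. Methylation near a promoter is usually associated with a silent gene, whereas gene bodies are often methylated in active genes. The DG is one of the few brain regions that keeps producing neurons in adult mammals. Pair bonding and parenthood in voles have been linked to oxytocin, vasopressin and dopamine signaling. A methylation level here is the percentage of methylated reads at one cytosine in one animal, in a tissue of mixed cell types, so that a change in one cell type and a change in the mixture cannot be told apart. The libraries hold DNA, so the tissue could not be checked against expressed markers.

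The 17 male libraries held 64896224 to 129376223 cytosine calls, with a median of 80511814. The median depth per covered cytosine was 19 to 43 reads. Virgin libraries had a median of 79134060 calls and “Father” libraries a median of 95173226. The share of methylated calls ranged from 8.34% to 38.7% in virgins and from 10.6% to 21.9% in “Father”. The highest value belonged to “Attacker” animal 6, which also had the lowest median depth, and it stood apart from the other virgins, the next of which had 24.7%. The mean level and the number of calls are given with and without it.

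The average methylation level did not differ detectably between virgins and “Father”. Over the 487440 cytosines with at least 10 reads in all 17 animals, the mean level was 5.85% ± 0.423 (SD, n = 12) in virgins and 5.77% ± 0.288 (SD, n = 5) in “Father”. Virgin animals ranged from 5.40% to 6.92% and “Father” animals from 5.52% to 6.16%, so that every “Father” value lay inside the virgin range. The difference was 0.0802 points, with p = 0.781 in a two-sided exact permutation test. “Attacker” animals averaged 5.96% ± 0.577 (SD, n = 6) and “Parental” animals 5.75% ± 0.182 (SD, n = 6). Without “Attacker” animal 6 the difference changed sign, to -0.0163 points (exact permutation p = 0.895). At the 29200 cytosines of intermediate level, 20% to 80%, the averages were 43.9% and 43.4%, with an exact permutation p of 0.858. Without “Attacker” animal 6 this difference also changed sign, from 0.481 to -0.356 points (exact permutation p = 0.803). Low cytosines, under 20%, averaged 1.58% in virgins and 1.51% in “Father” (exact permutation p = 0.599), and high cytosines, over 80%, averaged 90.9% and 91.2% (exact permutation p = 0.485). The smallest Benjamini-Hochberg adjusted p of the 4 exact permutation comparisons was 0.858.

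At single cytosines, the beta-binomial Wald test called 244 of 1093103 (0.0223%), a call being a Benjamini-Hochberg adjusted p under 0.05 and group means at least 15 points apart. Methylation was higher in virgins at 130 of them (0.0119%) and higher in “Father” at 114 (0.0104%). The differences ran from 17.2 to 77.0 points, with a median of 51.1. On simulated counts with planted changes, the same rule called unchanged cytosines at a rate above the one its adjusted p promises. The number of calls is therefore not in itself evidence of a difference between the groups. Planted changes loosen the adjusted cutoff, so the simulated share of false calls is not matched to the 0.0223% called here. By the adjusted Wald p alone there were 246 (0.0225%), and by an unadjusted Wald p under 0.05 with 15 points there were 13514 (1.24%). The exact permutation test of the same animals, two-sided over all splits of the levels, called 0 cytosines after adjustment. This test had 6188 splits of 12 against 5, so that its smallest possible p was 0.000323, which 16 cytosines reached, and across this many cytosines it could not pass the threshold. Unadjusted, 8618 cytosines (0.788%) had an exact permutation p under 0.05, and 17367 (1.59%) had a Wald p under 0.05. Among the 29200 cytosines of intermediate level with all 17 animals, 4.49% had an exact permutation p under 0.05. Moderated tests of arcsine levels with limma called 6 cytosines (0.000549%), and 2 of these were among the 244. In 1 of the limma fits of single cytosines most residual variances were 0, so limma counts of single cytosines may be unreliable. Of the 244, 242 had an unadjusted exact permutation p under 0.05, but these p-values carry no correction and the cytosines were picked on the same levels. The groups did not overlap at 60 of the 244, against 0.0102% of all tested cytosines, and at 23 of the 244 the nearest animals of the groups were at least 10 points apart. All “Father” levels were at 0% at 43 of the 130 cytosines higher in virgins, and at 100% at 25 of the 114 higher in “Father”.

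The number of calls rose when any “Father” animal was left out. Leaving out 1 virgin animal gave 219 to 266 called cytosines. Without “Attacker” animal 5 there were 238 and without animal 6 there were 242, and in both fits more were lower than higher in virgins, the opposite of the split with all animals. Leaving out “Father” animal 1 gave 561, animal 2 gave 619, animal 3 gave 648, animal 4 gave 681 and animal 5 gave 692. Each fit without a “Father” animal thus called over 2 times as many cytosines as the fit with all animals. The same 1093103 cytosines were tested in each fit, and the minimum of 4 “Father” animals was not applied again. Cytosines with 4 “Father” animals could thus be tested on fewer, and the effect of this on the counts was not tested. Of the 244, 41.8% were called in all 17 of these fits, and none changed sign in any of them. Restricting the test to cytosines with 10 reads in all 17 animals left 21 calls of 487440.

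**Figure D1:**
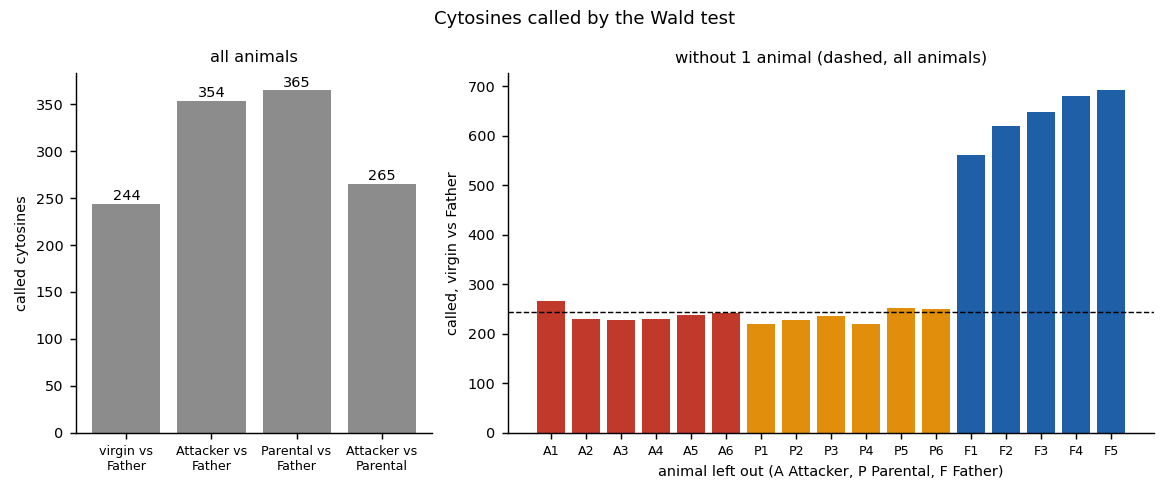
Number of cytosines called by the Wald test (y axis) in the 4 comparisons with all animals (left) and in virgin vs “Father” after leaving out each of the 17 animals (right; A, P and F with the animal number; dashed line, 244 with all animals). Bars without an “Attacker” or “Parental” animal lie between 219 and 266, and those without a “Father” animal between 561 and 692.

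“Attacker” and “Parental” differed from “Father” in the same direction at all 244 called cytosines, and at 243 both were at least 15 points away. Both groups were measured against the same 5 “Father” animals, and the cytosines were called on their pooled difference, so that agreement was frequent without any call. Of the 46248 cytosines (4.23% of those tested) with a pooled difference of at least 15 points, 96.7% had the same direction in both, and 55.4% had both at least 15 points away. Tested apart on the same cytosines, “Attacker” vs “Father” called 354 (0.0324%), 197 higher (0.018%) and 157 lower (0.0144%) in “Attacker”, and “Parental” vs “Father” called 365 (0.0334%), 180 higher (0.0165%) and 185 lower (0.0169%) in “Parental”. Of the 244, 93 were also called in “Attacker” vs “Father” and 112 in “Parental” vs “Father”. There were 24 called in both, and 63 were called in neither. The 2 virgin groups differ in pup response and in time with the test pup, and not in sexual experience. Their contrast called 265 cytosines (0.0242%) on the same set, 165 higher (0.0151%) and 100 lower (0.00915%) in “Attacker”. The group sizes differ from those of virgin vs “Father”, so the counts of 265 and 244 are not matched. None of the 244 was called between “Attacker” and “Parental” by the Wald test, and 13 had an unadjusted Wald p under 0.05. An exact permutation p under 0.05 was found at 7 (2.87%), against 0.601% of all tested cytosines. The 244 were called with both virgin groups pooled, which favours cytosines where these groups are alike, so these counts cannot show whether they differ. The 0.601% is not matched in level, since 88.9% of the 244 but 8.33% of all tested cytosines averaged 20% to 80%. The median absolute difference between “Attacker” and “Parental” means at the 244 was 10.7 points. The exact permutation test called 0 cytosines in each of the 3 comparisons, and limma on arcsine levels called 20, 10 and 14. These counts rose in every fit without 1 animal, whichever animal was left out. “Attacker” vs “Father” rose to 606, 500, 539, 527, 529 and 523 without “Attacker” animals 1 to 6, and to 552, 670, 607, 620 and 597 without “Father” animals 1 to 5. “Parental” vs “Father” rose to 488, 506, 522, 448, 494 and 531 without “Parental” animals 1 to 6, and to 584, 632, 722, 699 and 716 without “Father” animals 1 to 5. “Attacker” vs “Parental” rose to 451, 435, 456, 459, 402 and 403 without “Attacker” animals 1 to 6, and to 341, 345, 396, 425, 342 and 411 without “Parental” animals 1 to 6.

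A set of 12 genes was named for the widest separation with “Father” higher, each by 1 called cytosine inside the gene or within 2 kb of it (MicOch1.0 coordinates). They include the auxiliary AMPA receptor protein gene Shisa6, the postsynaptic organizer Elfn2 and the tyrosine kinase Src, which phosphorylates NMDA receptors, beside genes best known from muscle, mitochondria and innate immunity. Sobp, which encodes a nuclear zinc finger protein, had a called cytosine at position 28727732 of linkage group LG9. Its 4 “Father” levels were 53.4%, 55.6%, 78.6% and 100%, whereas the 10 virgins ran from 0% over a median of 0% to 25%, with 8 of them at 0%. Among animals with at least 10 reads the groups were 28.4 points apart, the widest gap among the named cytosines, but “Father” animal 3, left out with 8 reads, had 0 methylated. The adjusted Wald p was 0.000119 and the unadjusted exact permutation p 0.0020. Col13a1, a transmembrane collagen of the neuromuscular synapse, followed at LG2 position 34663034. “Father” levels there were 44.1%, 52.8%, 70.3%, 94.1% and 100%, and the 9 virgins had a lowest level of 0%, a median of 6.90% and a highest of 27.5%. Jph1, a junctophilin that holds the endoplasmic reticulum close to the plasma membrane, was read as fully methylated in all 5 “Father” animals at LG5 position 10910399, over 91 reads in sum. The 11 virgins spread from 0% over a median of 41.7% to 84.2%. The other strand of this CpG had means of 65.0% in virgins and 64.9% in “Father”. Here and below, the other strand was inferred from adjacent positions, since the counts carry no strand.

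Mcur1, a regulator of the mitochondrial calcium uniporter, held a pair of called cytosines on chromosome 16. At position 47412403 the 4 “Father” levels were 93.3%, 100%, 100% and 100%, and the 12 virgins ran from 0% over a median of 36.1% to 80.5%. At position 47412374 virgins had a mean of 33.1% ± 24.3 (SD, n = 12), and the 4 “Father” animals one of 83.4% ± 18.1 (SD). “Father” animal 5, left out at the first position with 7 reads, had 0 methylated. The other strand of the first CpG pointed the opposite way, with 83.1% in virgins and 64.4% in “Father” and an exact permutation p of 0.151. Hey2, a transcriptional repressor downstream of Notch, had its cytosine 1805 bp outside the gene at LG9 position 38314627. “Father” levels were 28.6%, 32.4%, 33.3% and 54.1%, and 8 of 9 virgins were at 0%, with the remaining one at 15.9%. Znf516, a zinc finger transcription factor, had “Father” levels of 56.3%, 60.7%, 64.0% and 100% at chromosome 18 position 65948797, against a virgin range of 0% to 44.0% with a median of 5.26%. The “Father” SD was 11.5 points at Hey2 and 20.1 at Znf516. At Mcur1 position 47412403 it was 3.33 points, and the virgins spread widely there, with an SD of 25.7. Several single levels in these genes rest on fewer than 20 reads.

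Ap3d1 and Shisa6 had values in more reads and in nearly all animals. Ap3d1 encodes the delta subunit of the AP-3 adaptor, which sorts proteins into synaptic vesicles and lysosomes. At LG1 position 3090237 its 5 “Father” levels were 82.9%, 90.1%, 91.2%, 97.8% and 100%, and the 11 virgins had a median of 56.1% and a highest level of 74.6%. One virgin, “Parental” animal 1, was at 0%. Shisa6 was measured in all 17 animals at chromosome 7 position 32428863. Its “Father” levels were 77.9%, 81.2%, 83.1%, 87.0% and 93.6%, and virgins ran from 17.1% over 52.9% to 70.5%. The difference at Shisa6 was -36.7 points, virgin minus “Father”, with an adjusted Wald p of 0.000632, and the exact permutation p was the smallest possible, 0.000323, unadjusted. The remaining cytosines of this group were in Mgat5b, a brain glycosyltransferase, Elfn2, the ubiquitin ligase Trim56 and Src. Mean levels were 80.6% in “Father” and 35.0% in virgins at Mgat5b, 73.3% and 17% at Elfn2, 74.0% and 19.5% at Trim56, and 61.2% and 11.9% at Src. Among animals with at least 10 reads the groups did not overlap at these 4, with gaps of 6.94, 5.45, 4.35 and 2.56 points. With the animals left out for depth they overlapped at all 4. At Mgat5b “Attacker” animal 6 had 8 of 8 reads methylated, and at Trim56 “Parental” animal 1 had 7 of 7. At Elfn2 the overlap rested on “Father” animal 1, with 0 of 1 read methylated.

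A further 12 genes were named for “Father” being lower. Sdk2, a sidekick adhesion molecule that matches synaptic partners, had “Father” levels of 0%, 0%, 5.88% and 5.88% at chromosome 7 position 76895733. The 12 virgins ran from 17% over a median of 65.5% to 100%. The difference was 61.0 points with an adjusted Wald p of 4.92e-08 and an unadjusted exact permutation p of 0.0011. On the other strand of this CpG the means were 50.5% in virgins and 35.9% in “Father” (exact permutation p = 0.489). Celf4, a neuronal RNA-binding protein that tunes excitability, was at 0% in all 4 “Father” animals at chromosome 18 position 1696515, with 0 of 313 methylated reads, which allows a level of up to 0.958%. All 12 virgins were above 0% there, from 5.71% over a median of 19.7% to 76.5%. At the other strand Celf4 had means of 13.2% in virgins and 11.3% in “Father”. Tenm2, a teneurin that binds latrophilins across the synapse, was at 0% in 4 “Father” animals over 82 reads, which allows up to 3.66%, and 10 virgins ran from 0% over 89.3% to 100%. The metalloproteinase gene Mmp9, which remodels the perisynaptic matrix, was also at 0% in 4 “Father” animals, over 95 reads, which allows up to 3.16%, against a virgin median of 65.0% and a range of 0% to 100%.

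Lcp1, an actin-bundling protein of leukocytes and microglia, had the deepest reads of the named cytosines, a median of 234 per animal at chromosome 17 position 20704568. Its 5 “Father” levels were 14%, 17.9%, 22.2%, 28.2% and 28.3%, and the 12 virgins ran from 28.5% over a median of 54.2% to 67.9%. The groups touched but did not overlap, with a gap of 0.162 points, and the exact permutation p was 0.000323, unadjusted, with an adjusted Wald p of 0.000545. No other tested cytosine lay within 100 bp of it. Nrap, a muscle anchoring protein, was fully methylated in 8 of 10 virgins, with 79.2% and 92.0% in the other two, and “Father” levels were 14.3%, 41.2%, 60.0% and 69.4%. Cdh23, a cadherin of inner ear hair cells, was at 100% in 9 of 11 virgins, and its 4 “Father” levels were 0%, 45.5%, 48.2% and 50%. Gtf2i, a transcription factor of the chromosomal region linked to hypersociability in Williams syndrome, had virgin levels from 58.7% over 87.4% to 100% and “Father” levels of 14.9%, 18.2%, 37.9% and 52.6%. At Sostdc1, a secreted antagonist of BMP and Wnt, “Father” levels were 0%, 0%, 0% and 22.6%, and the 9 virgins ran from 26.5% to 100%. For Ovol1, Gmppa and Dnajc2 the virgin means were 59.8%, 43.4% and 82.6%, and the “Father” means were 14.6%, 2.40% and 18.5%.

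**Figure D2:**
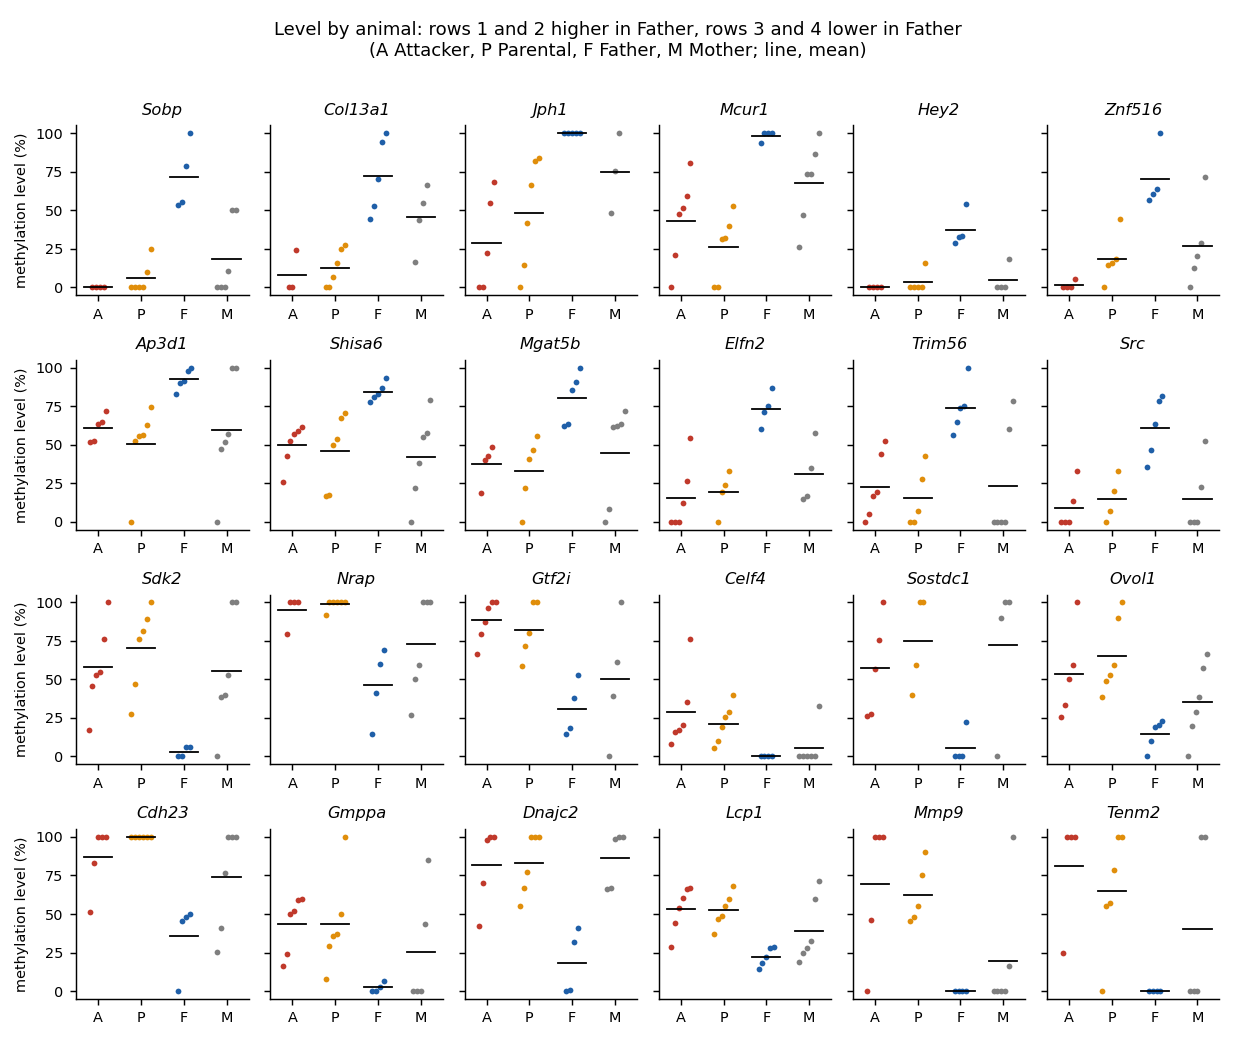
Methylation level in percent (y axis) of each animal with at least 10 reads at 1 called cytosine of 24 genes; A, Attacker; P, Parental; F, Father; M, Mother; black line, group mean. Father points lie above all virgin points in the upper 2 rows, and below them in the lower 2 rows, where the virgins reach down to the Father level of 0% at Mmp9 and Tenm2.

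The 15 lists of genes with roles in neurons, hormones, parenthood and cell types were read for called cytosines. Genes of synapse organization held 5 called cytosines of 3791 (0.132%), all higher in virgins, beside 0.0223% of all tested cytosines. The same list had 6.54% of its cytosines at 15 points or more in either direction, against 4.23% of all tested cytosines. Over the 15 lists this share ran from 1.35% in astrocyte genes to 10.7% in microglia and vascular genes, and the median difference of every list was 0 points, as over all cytosines. The 5 cytosines lay in 4 genes, Camk2a, Nrxn2 (a pair), Shank2 and Dlg2. Camk2a, the kinase that sets synaptic strength in long-term potentiation, was at 0% in all 5 “Father” animals at chromosome 18 position 46753064, with 0 of 457 methylated reads, which allows up to 0.656%. Of 12 virgins 11 were above 0%, with a median of 24.8% and a highest level of 63.9%, and the 6 “Mother” animals ran from 11.1% to 46.7%. The adjusted Wald p was 0.0024 and the unadjusted exact permutation p 0.0019. Nrxn2, a presynaptic neurexin, was at 0% in all 5 “Father” animals at chromosome 8 position 41320299, over 239 reads, which allows up to 1.26%. The virgins ran from 0% over 25.8% to 71.7%, whereas the other strand of this CpG was higher in “Father”, 15.9% against 11% (exact permutation p = 0.471). At a further Nrxn2 cytosine, position 41243739, the means were 67.3% ± 43.5 (SD, n = 9) in virgins and 0% in 4 “Father” animals. Shank2, a scaffold of the postsynaptic density, had “Father” levels of 0%, 0%, 0% and 14.3% and a virgin median of 54.6%. Dlg2, a further scaffold of that density, had means of 91.9% in “Attacker”, 50.3% in “Parental” and 7.46% in “Father”, so that the virgin groups stood 41.6 points apart, a difference that was not called.

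Glutamate and GABA receptor genes held 1 called cytosine of 2814 (0.0355%, beside 0.0223% of all tested), in the AMPA receptor subunit gene Gria1. Its 4 “Father” levels were all 0%, over 114 reads, which allows up to 2.63%, and the 9 virgins ran from 0% over 53.8% to 100%. Wnt signaling genes held 2 of 5111 (0.0391%, beside 0.0223%), 1 in each direction. Ror1, a receptor for Wnt5a, had “Father” levels of 16.7%, 25%, 43.2%, 48.0% and 52.6% at chromosome 10 position 67749125, while 10 of 12 virgins were at 0% and the highest at 18.2%. The other strand there had means of 26.6% in virgins and 18.8% in “Father” (exact permutation p = 0.732). Dkk4, a secreted Wnt antagonist, had its cytosine 338 bp outside the gene. Its “Father” levels were 7.14%, 7.69%, 8.51%, 23% and 40.2%, and the 12 virgins ran from 33.8% over 58.3% to 90.0%. Activity-regulated genes held 2 of 3306 (0.0605%, beside 0.0223%), in the orphan nuclear receptors Nr4a2 and Nr4a3, which neuronal firing induces. They went opposite ways, with means of 40.5% in virgins and 8.25% in “Father” at Nr4a2, and 24.9% and 90.0% at Nr4a3. The groups overlapped at both. At Nr4a3 the 3 “Parental” animals stood at 0%, 0% and 94.4%, and the lowest “Father” level was 60%. Extracellular matrix genes held 1 of 2554 (0.0392%, beside 0.0223%), the Col13a1 cytosine above.

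The other 10 lists held 0 cytosines called by the Wald test. Among them, social neuropeptides and their receptors had 1001 tested cytosines, 11 of them (1.1%) with an unadjusted exact permutation p under 0.05. These cytosines lay in 22 of the 44 genes of the list. Avpr1b was among the 22, but Oxt, Oxtr, Avp and Avpr1a were not, so those 4 genes were not examined. The corresponding figures were 5 of 987 (0.507%) for dopamine, serotonin and acetylcholine signaling, 4 of 967 (0.414%) for steroid and stress hormone signaling, and 9 of 1082 (0.832%) for the DNA methylation machinery. Dentate gyrus neurogenesis genes had 39 of 5954 (0.655%), and imprinted genes 15 of 1726 (0.869%). Cell type genes had 10 of 704 (1.42%) for oligodendrocytes and myelin, 0 of 444 for astrocytes, 2 of 319 (0.627%) for microglia and vessels and 4 of 299 (1.34%) for choroid plexus. All tested cytosines together had 0.788%, so the shares lay on both sides of it.

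**Figure D3:**
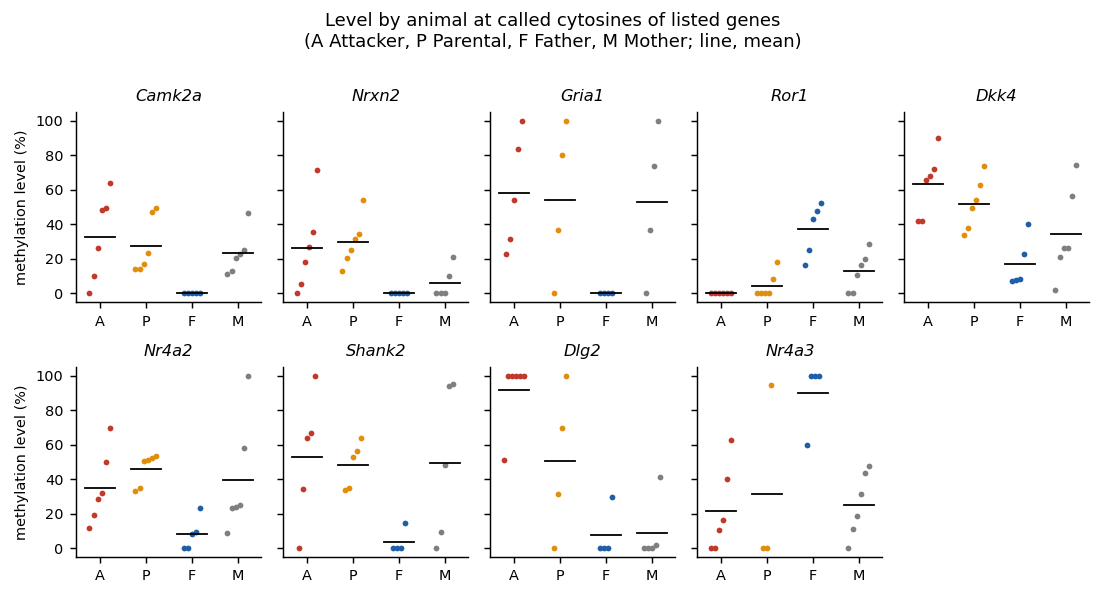
Methylation level in percent (y axis) of each animal with at least 10 reads at the called cytosines of 9 listed genes; A, Attacker; P, Parental; F, Father; M, Mother; black line, group mean. Father points are all at 0% at Camk2a, Nrxn2 and Gria1, where virgins spread from 0% upward. No Mother animal at Camk2a was at 0%. The Father mean is the highest at Ror1 and Nr4a3, where the highest virgin lies above the lowest Father.

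Of the 33 named cytosines, 21 were called in all 17 fits without an animal, and 12 lost the call in at least 1. Among genes lower in “Father”, the Nrap call was lost without “Father” animal 1, with an adjusted Wald p of 0.218, that of Sostdc1 without “Attacker” animal 5 (0.0525), and that of Ovol1 without “Father” animal 4 or “Parental” animal 2 (0.0542 and 0.0552). Cdh23 lost it without “Father” animals 2, 3 or 5 (0.0764, 0.0812 and 0.104) and Dnajc2 without “Father” animals 3 or 5 (0.0578 and 0.148). Among genes higher in “Father”, Hey2 lost it without “Father” animals 2, 4 or 5 (0.161, 0.0698 and 0.0701). Mgat5b lost it without “Father” animals 1, 2 or 4, “Attacker” animal 5 or “Parental” animal 2 (0.0538 to 0.148). Of the listed genes, Gria1 lost it without “Attacker” animal 6 or “Parental” animal 1 (0.110 and 0.104), and Ror1 without “Father” animals 1, 2 or 5 (0.186, 0.191 and 0.124). Nr4a2 lost it without “Father” animals 1, 2, 4 or 5 or “Parental” animal 2 (0.0511 to 0.0668). Dlg2 lost it without any of “Attacker” animals 2 to 6, “Father” animals 2 or 3 or “Parental” animal 2 (0.0631 to 0.0688). Nr4a3 lost it without “Attacker” animals 1, 3, 4 or 5, “Father” animals 3, 4 or 5, or “Parental” animals 2 or 5 (0.107 to 0.164). No difference changed sign, and the remaining genes, among them Shisa6, Lcp1, Celf4 and Camk2a, kept the call throughout.

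The separation of the groups depended on leaving out animals with under 10 reads. Of the 22 named cytosines whose groups did not overlap, 10 were still apart when every animal with a read was counted, 11 overlapped, and at Jph1 the groups met. The 10 were those in Hey2, Znf516, Shisa6, Sdk2, Gtf2i, Celf4, Ovol1, Cdh23, Gmppa and Lcp1. The 11 were in Sobp, Col13a1, Mcur1, Ap3d1, Mgat5b, Elfn2, Trim56, Src, Nrap, Sostdc1 and Dnajc2. With these animals kept in the Wald test, 11 of the 33 named calls were lost, namely those in Sobp, Col13a1, Mcur1, Mgat5b, Src, Nrap, Sostdc1, Dnajc2, Mmp9, Dlg2 and Nr4a3. Their adjusted Wald p then ran from 0.128 at Mgat5b to 1.00, with 0.229 at Sobp. With a minimum of 5 reads 9 of the 33 were lost, the same genes except Mmp9 and Nr4a3. At Elfn2 and Ap3d1 the overlap rested on 1 animal with 1 read, and both calls held with it kept (adjusted Wald p 0.000522 and 0.00197). Keeping animals with under 10 reads was an alternative chosen after the data were seen.

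The called cytosines differed from the rest in level, depth and position. Their levels and spread largely follow from the rule, since a large difference between groups forces an intermediate mean and a large SD. Of the 244, 88.9% had a mean level of 20% to 80% over the 17 animals, against 8.33% of all tested cytosines. Their median SD over animals was 32.6 points, against 1.86 points for all tested and 28.6 points for all tested cytosines of intermediate level. Depth and position were not part of the difference but may go with an intermediate level, and for position only all tested cytosines were compared. The called cytosines were read less deeply, with a median of 32.5 reads per animal against 45. For tested cytosines of intermediate level the median was 40. All 17 animals had 10 reads at 14.3% of the called, 44.6% of all tested and 32.1% of those of intermediate level. The called cytosines lay in sparse stretches, with a median of 3 other tested cytosines within 500 bp against 49 for all tested. On the named chromosomes 52.5% lay inside a gene, against 65.9% of tested cytosines, and 37.9% lay more than 2 kb from any placed gene, against 13.8%. Unplaced scaffolds held 67 (27.5%), close to their 26.9% of tested cytosines, and for these no gene was assigned. In all, 106 genes had a called cytosine within 2 kb, and 4 of them, Camkk2, Nrxn2, Mcur1 and Med30, had a pair.

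Called cytosines stood alone. There were 228 with no other called cytosine within 100 bp, and no stretch held 3 or more called in one direction with gaps up to 100 bp. There were 7 runs of 2. The run in Camkk2, a kinase upstream of AMPK, spanned chromosome 2 positions 14909465 to 14909473, with virgin means of 48.0% and 45.4% and a “Father” mean of 5.85% at both. Near Crtc3, a coactivator of CREB, the run at chromosome 22 positions 11009347 to 11009380 had virgin means of 58.9% and 69.6% and “Father” means of 0% and 4.88%. Where at least 3 other tested cytosines lay within 100 bp, at 116 of the 244, their mean difference was a median of 8.82 points in the direction of the called one. It was 15 points or more at 33 of the 116 and had the opposite sign at 22. The 5 neighbours of Ovol1 differed by 25 points and the 28 of Sobp by -14.4, whereas those of Nr4a2, 37 cytosines, differed by -2.30.

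The other strand of a called CpG is read from other fragments of the same library, and both cytosines of a CpG are usually methylated together. The counts carry no strand, so the cytosines of a CpG were paired by adjacent positions. The inferred other strand was tested at 48 of the 244. The median difference was 43.0 points at the called strand and 0.295 points, in the same direction, at the other. The signs matched at 25 of 48, the other strand was at least 15 points away in the same direction at 7, none was called by the Wald test, and 2 had an unadjusted exact permutation p under 0.05. Over all 298505 CpGs with both cytosines tested, the mean levels of both strands were alike, with Pearson r = 0.971 across CpGs, which share libraries and base composition. At the 12611 CpGs of intermediate level the strand means still had r = 0.855. The deviations of single animals from the cytosine mean had r = 0.104 between strands there, and the virgin minus “Father” differences r = 0.0797. The strands came from the same animals and libraries.

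**Figure D4:**
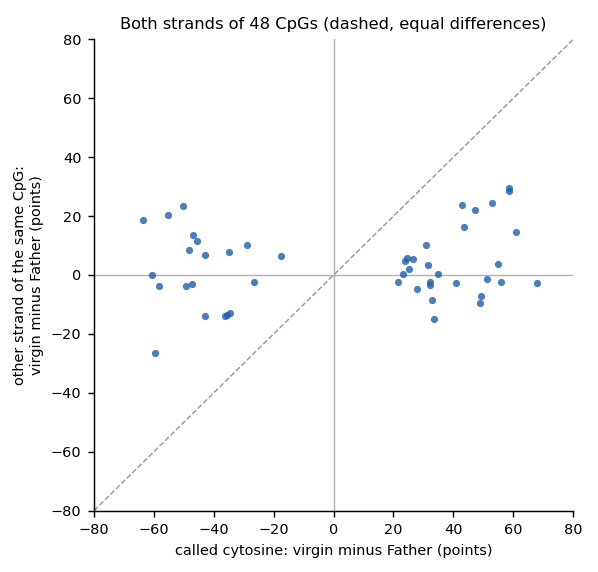
Difference in mean level, virgin minus Father in points, at 48 called cytosines (x axis) and at the cytosine on the other strand of the same CpG, inferred from adjacent positions (y axis); dashed line, equal differences; grey lines, 0. The called cytosines lie far from 0 on the x axis by the choice of members, and the points scatter around 0 on the y axis, with 25 of 48 of matching sign.

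“Mother” animals had not entered the call and had at least 4 animals with 10 reads at 209 of the 244 cytosines. At the 112 of these that were higher in virgins, the median of group means was 55.3% in “Attacker”, 53.9% in “Parental”, 4.32% in “Father” and 36.7% in “Mother”. At the 97 that were higher in “Father”, it was 31.7% in “Attacker”, 32.7% in “Parental”, 88.8% in “Father” and 44.8% in “Mother”. The “Mother” mean was nearer the virgin mean at 148 of 209 (70.8%) and nearer the “Father” mean at 61, although “Mother” and “Father” share pairing and litter and differ in sex. The virgin and “Father” values had been used to choose the cytosines, so this is a description without a test. Single genes differed. At Camk2a the “Mother” mean was 23.1%, beside 30.2% in virgins and 0% in “Father”. At Celf4 it was 5.45%, beside 25.2% in virgins and 0% in “Father”, with 5 of 6 “Mother” animals at 0%.

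**Figure D5:**
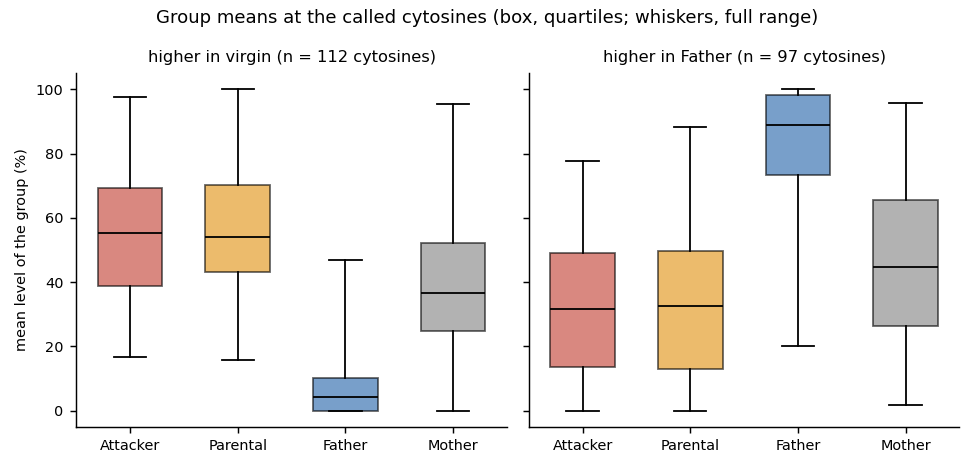
Mean methylation level of each group in percent (y axis) at the called cytosines with at least 4 Mother animals, higher in virgin (left, 112 cytosines) and higher in Father (right, 97 cytosines); line, median; box, quartiles; whiskers, full range. Attacker and Parental have like medians in both panels, Father lies apart by the choice of cytosines, and Mother medians of 36.7% and 44.8% lie between.

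Averaging over neighbouring cytosines left no difference past the threshold. Of 23433 windows of 1 kb with at least 5 cytosines, limma called 0 (0%) at an adjusted p under 0.05, 1050 (4.48%) had an unadjusted p under 0.05, and the smallest adjusted p was 0.382. The median absolute difference between virgins and “Father” was 0.392 points, and 53 windows differed by 15 points or more. Of 9608 genes with their 2 kb flanks, limma called 0 (0%), 424 (4.41%) had an unadjusted p under 0.05, 213 higher and 211 lower in virgins, and the smallest adjusted p was 0.0654. The median absolute gene difference was 0.319 points. The gene with the smallest p was LOC113456329, an uncharacterised locus of chromosome 7. Its 5 “Father” levels were 0.838%, 1.42%, 2.05%, 2.18% and 2.36%, and of 12 virgins 10 were at 0%, 1 at 0.0882% and “Parental” animal 2 at 1.71%. Without “Parental” animal 2 it passed the threshold, in the fit of genes and in that of windows. LOC101983728, an uncharacterised locus of LG3, had 3.38% ± 2.00 (SD, n = 12) in virgins and 10.1% ± 2.32 (SD, n = 5) in “Father” and was the only gene of 9608 whose groups did not overlap, with an adjusted limma p of 0.718. Ankrd50, an endosomal sorting protein, followed among named genes with 3.81% ± 1.08 (SD, n = 12) in virgins and 6.44% ± 0.770 (SD, n = 5) in “Father”, over 23 cytosines, with an adjusted limma p of 0.718. Ppp2r3c, a regulatory subunit of phosphatase 2A, had 0.443% and 2.09%, and Ttc14 had 7.88% and 4.06%, with the same adjusted limma p. A window at chromosome 1 positions 91732001 to 91733000, in Ankrd50, was the only one of 23433 whose groups did not overlap. Virgins ran from 4.36% to 18.3% and “Father” from 19.7% to 27.5%, with an adjusted limma p of 0.493.

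Gene averages of the lists moved little. None of the list genes tested passed limma's adjusted threshold, and the list medians of virgin minus “Father” lay between -0.235 points for astrocyte genes and 0.386 points for glutamate and GABA receptors, beside 0.0452 points for all 9608 genes. The list gene with the smallest p was Reln, the extracellular guidance protein that keeps granule neurons in their layer, with 8.85% ± 2.16 (SD, n = 12) in virgins and 5.60% ± 1.40 (SD, n = 5) in “Father”, with an adjusted limma p of 0.718. Lrrtm3, a postsynaptic partner of neurexins, had 9.36% and 4.53%, with the same adjusted limma p. These averages use only cytosines with 10 reads in all 17 animals. Over all tested cytosines the means in virgins and “Father” were 11.5% and 10.7% at Reln, and 17.7% and 17.3% at Lrrtm3. Of 46 Wnt genes, 3 (6.52%) had an unadjusted p under 0.05, beside 4.41% of all genes, and their smallest adjusted limma p was 0.946. All 3 averages were higher in “Father”. The coreceptor Lrp5 had 0.401% in virgins and 1.69% in “Father”, the antagonist Dkk1 2.74% and 4.98%, and the receptor Fzd10 1.42% and 2.24%. Over all 43 tested cytosines Lrp5 went the other way, with 10.8% in virgins and 10.1% in “Father”. Dkk1 and Fzd10 kept the direction over all tested cytosines, with 2.49% and 3.71%, and 2.84% and 3.35%. Of 28 synapse organization genes, 2 (7.14%) had an unadjusted p under 0.05, both higher in virgins. None of 16 social neuropeptide genes, 9 steroid and stress hormone genes or 10 genes of the methylation machinery had an unadjusted limma p under 0.05. Oxt, Oxtr, Avp and Avpr1a were again not among the genes tested. Shank2, whose gene average rested on 117 cytosines, had 10.4% ± 1.1 (SD, n = 12) in virgins and 8.71% ± 1.18 (SD, n = 5) in “Father”, with an adjusted limma p of 0.994.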

How the data were processed

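DNA was digested with MspI, bisulfite converted and sequenced by the authors, 1 library per animal. Per the labels and the study's methods, reads were trimmed with Trim Galore, aligned with Bismark to MicOch1.0, and written as one table per animal. The deposited values are raw counts per cytosine, total reads and methylated reads, without normalization or strand. Gene positions were taken from RefSeq for MicOch1.0, which placed 18408 genes, while unplaced scaffolds carried none.

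Groups were taken from the labels, which give no batch. Members and gene lists were chosen with earlier results of these data known. At each cytosine, animals with under 10 reads were left out, and a beta-binomial Wald test in the manner of DSS, rewritten in Python 3.11.15 with numba 0.67.0, compared virgins with “Father”. Dispersions were estimated per group and shrunk, with a pseudocount of 0.5 methylated reads of 1 read. P-values were adjusted by Benjamini-Hochberg over all 1093103 cytosines. On simulated counts this Wald test also called unchanged cytosines, at a rate above the one its adjusted p promises, and the exact permutation test called none of the changed ones. The exact permutation test doubled the smaller tail. Windows and genes were tested with limma 3.58.1 (R 4.3.3) on arcsine square roots of the mean level over cytosines with 10 reads in all 17 animals. Named genes were the 12 per direction with the widest gap between groups, at called cytosines within 2 kb where both virgin groups were at least 15 points from “Father”, leaving out LOC symbols, and the listed genes with such a cytosine, plus the 5 windows and 5 genes with the smallest p. The other Nrxn2 and Mcur1 cytosine and the pairs in Camkk2, Med30 and near Crtc3 were named after their values were seen, as were the listed genes with the smallest p. Replicates are separate animals. Same-numbered animals had correlations of deviations from -0.0203 to 0.0580. Both strands of the same animals had only r = 0.104 at CpGs of intermediate level, so low values cannot show whether the numbers pair animals. The share of methylated calls was 8.34% in “Attacker” animal 1 and 38.7% in animal 6. It was 10.4% and 20.4% in “Parental” animals 1 and 6, and 10.6% and 21.1% in “Father” animals 1 and 5. A link of the numbers to an order of processing was not tested. No molecular identifiers separate PCR copies from molecules, so the limits for 0 methylated reads (3 counts) cover counting error only. Alternatives changed the depth minimum, difference, test, weights, strands, chromosomes, and left out each animal.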

Additional observations from a re-analysis of the deposited data

Results flagged for a closer look

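Within groups of 4 to 10 animals, the highest or lowest animal was compared with its nearest neighbour by Dixon's ratio. Of 125 groups tested at the named cytosines, windows and genes and for the mean level, 18 had an animal apart, where chance gives about 1 in 20, and many of these groups have all other animals at 0% or 100%. In “Father”, such an animal stood at 93.3% at Mcur1, 22.6% at Sostdc1, 0% at Cdh23, 14.3% at Shank2, 29.9% at Dlg2 and 60.0% at Nr4a3. In “Attacker”, it stood at 5.26% at Znf516, 79.2% at Nrap, 25% at Tenm2 and 51.4% at Dlg2. In “Parental”, it stood at 15.9% at Hey2, 0% at Ap3d1 and 92.0% at Nrap. Among the averages, “Parental” animal 2 stood at 1.71% at LOC113456329 and in the 1-kb window of chromosome 7 that begins at 4943001 within it. In a window of an unplaced scaffold 1 “Attacker” animal stood at 0.0912% and 1 “Parental” animal at 0.455%, and in a window of LG3 1 “Attacker” animal stood at 0.575%, the other animals of these groups being at 0%.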

How the results depend on the processing

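The 244 calls of virgin vs “Father”, of 1093103 tested, became 0 with the exact permutation test and 6 with limma on arcsine levels. Without adjustment there were 13514 (1.24% of those tested). A change of the depth minimum also changed the number of cytosines tested. There were about 1.0e+02 of 706568 with 20 reads (57 higher and 44 lower in virgins) and 471 of 1282059 with 5 reads. With 10 reads in all 17 animals there were 21 of 487440. With a replicate block in limma there were 2, so the block did not add calls. Weights scaled over all cytosines gave 266 and a minimum of 25 points 233. Both strands summed gave 347 of 845764 tested, and named chromosomes alone 177 of 799077. Keeping animals with under 10 reads, an alternative chosen after the data were seen, gave 203. Leaving out 1 animal gave 219 to 692. “Attacker” vs “Father” went from 354 to 0 with the exact permutation test, 20 with limma, 3 with the replicate block and 500 to 670 without 1 animal. “Parental” vs “Father” went from 365 to 0, 10, 14 and 448 to 722 under these settings, and “Attacker” vs “Parental” from 265 to 0, 14, 1 and 341 to 459. The cause of these shifts was not tested. Regions went from 0 to 1 with 20 reads and 0 to 4 without 1 animal (1 without “Attacker” animal 3 or 5, “Parental” animal 2 or 6 or “Father” animal 1, 3 without “Father” animal 2 or 3, 4 without “Father” animal 4 and 2 without “Father” animal 5), windows and genes from 0 to 0 or 1 without 1 animal (a window without “Parental” animal 2, “Father” animal 3 or “Father” animal 5, a gene without “Parental” animal 2), and the replicate block left both at 0 with limma. The mean level difference, 0.0802 points, ran from -0.0163, without “Attacker” animal 6, to 0.177 without 1 animal, and summed reads gave 0.251. No named cytosine changed sign. Of the 33 named cytosines, 28 were tested when strands were summed and 18 of these were called, 11 were lost with animals under 10 reads kept and 9 at 5 reads, and none of the 33 was called with the exact test or limma. Precision is limited by 5 “Father” animals, a median of 32 reads per “Father” animal at the called cytosines, and the missing strand. In 1 limma fit of single cytosines most of the residual variances were 0, so its p-values are unreliable. That fit is not identified here, so the limit may apply to any limma count of single cytosines given above.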
